A study of Mus musculus with 21 samples.

Results

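The genes described here are p53, the tumour suppressor encoded by Trp53, and 9 genes that p53 is known to switch on: Cdkn1a, Mdm2, Ccng1, Trp53inp1, Gadd45a, Bax, Pmaip1, Bbc3 and Sesn1. They were chosen by name, with earlier results of these data known, and each was read from the array probe sets annotated to it alone. Of the 10 genes, 8 have such probe sets, 17 in all, among 45101 on the array. Trp53 and Bax are not analysed here, so every statement below is about target genes and none is about the level of p53 mRNA itself. Where a gene has several probe sets, the one with the highest mean over the arrays is taken as its reading and the others are given by their identifiers.

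p53 is a transcription factor that is held at a low level by Mdm2, a ubiquitin ligase which marks it for degradation and which is itself a p53 target, so that the pair form a feedback loop. UV light damages DNA, the damage kinases phosphorylate p53, the protein accumulates, and its targets then stop the cell cycle (Cdkn1a, Gadd45a), promote repair or antioxidant defence (Gadd45a, Sesn1) or trigger cell death (Bbc3, Pmaip1, Bax). In epidermis this response is known for the death of damaged keratinocytes after sunburn. Most of the control of p53 lies in the stability of its protein, which an array does not measure.

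The arrays hold RNA of dorsal skin of female albino hairless Hos:HR-1 mice, bought at 6 weeks of age, with 3 mice and 3 arrays in each of 7 groups. The groups are non-irradiated controls at weeks 1 and 8 (control week 1, control week 8) and 5 groups that had been irradiated, taken at week 1, 2, 4, 6 or 8 (UV week 1 to UV week 8). The irradiated mice were exposed 3 times a week to a broad-band UV lamp, and the dose rose each week by 1 minimal erythemal dose (MED), which was 100 mJ per cm2, up to 4 MED. The labels name no engineered allele, and the time between the last exposure and sampling is not given in the sources used here. Whole skin was used, so a fall in a gene's signal may be fewer cells of a type or less RNA per cell, and these cannot be told apart.

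All levels below are log2 of the deposited probe set intensity, on which a difference of 1 is a doubling. Levels of different probe sets are not compared, since each probe set binds with its own strength. The 20th percentile of an array served as a floor, and all 17 probe sets reached it in at least 1 array, as did 40540 probe sets in total. The readings of Cdkn1a, Ccng1, Trp53inp1 and Sesn1 lay at or above the 93.3th percentile of every array, that of Mdm2 between the 84.8th and the 91.2th, that of Gadd45a between the 80.2th and the 89th, and those of Bbc3 and Pmaip1 between the 63.9th and the 80.8th. By contrast Mdm2 1457929_at reached the floor in 6 arrays only, Sesn1 1444376_at in 18 and Trp53inp1 1416927_at in 19.

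The tissue matched its label, as the keratinocyte keratins Krt14, Krt1 and Krt10 stayed at or above the 98.7th percentile of every array. The keratin Krt5 stayed at or above the 94.5th, and the lowest of the keratinocyte genes, Itgb4, at or above the 55.8th. The cell type markers moved with UV. Of 4 hair follicle genes 3 were lower over all UV weeks, their mean ranging from 11.11 to 11.63 in control week 1, from 9.19 to 10.29 in control week 8, from 4.72 to 8.90 at UV week 4 and from 5.64 to 7.98 at UV week 8. Of 5 fibroblast genes 2 were lower, with a mean of 12.65 to 13.23 over the control arrays and of 11.27 to 12.58 at UV weeks 6 and 8, and of 3 skeletal muscle, T cell, mast cell and endothelial genes each 1 was lower. None of the keratinocyte, adipocyte, macrophage and neutrophil genes and none of the 5 genes of dividing cells was called in either direction, and no marker was at 0. The integrity of the RNA also varied. The 3'/5' ratio of beta-actin, which is high when only the end of the message is well represented, ran from 2.26 to 5.14 on the log2 scale and was above 4 in 8 arrays. These were array 12 of control week 1, arrays 112 and 114 of UV week 1, array 333 of UV week 4, arrays 441 and 445 of UV week 6 and arrays 552 and 555 of UV week 8. The part of cell composition in the results below was not tested.

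To show what p53 could bind near these genes, the RefSeq start-site windows of 6 measured members (Bbc3, Ccng1, Cdkn1a, Gadd45a, Mdm2 and Sesn1) were searched on both strands for the canonical p53 decamer. p53 binds as a tetramer to a pair of such decamers. Each window runs from 250 bases before the start to 50 after it (GRCm38.p6). A decamer was present in 8.36% of all 32851 windows, and a pair with at most 13 bases between its decamers in 24 windows, or 0.0731%. The windows of Cdkn1a, Ccng1, Gadd45a, Mdm2 and Sesn1 that hold one are shown, followed by that of Bbc3, a gene with one of the clearest changes, which holds none. Capitals mark the decamers.
Cdkn1a, upstream start, chr17:29090729-29091028, plus strand: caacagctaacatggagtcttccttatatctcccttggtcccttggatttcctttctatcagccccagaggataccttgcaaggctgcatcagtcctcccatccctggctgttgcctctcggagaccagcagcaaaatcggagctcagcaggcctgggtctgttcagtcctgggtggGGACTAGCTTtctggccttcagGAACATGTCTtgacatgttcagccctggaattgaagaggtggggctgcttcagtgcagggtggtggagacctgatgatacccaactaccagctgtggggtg
Ccng1, chr11:40755237-40755536, minus strand: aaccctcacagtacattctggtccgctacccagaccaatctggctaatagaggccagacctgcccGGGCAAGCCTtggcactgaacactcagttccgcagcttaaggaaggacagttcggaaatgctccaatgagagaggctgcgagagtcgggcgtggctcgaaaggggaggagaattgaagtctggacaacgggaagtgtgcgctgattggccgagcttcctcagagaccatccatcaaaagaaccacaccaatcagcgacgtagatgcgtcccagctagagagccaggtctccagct
Gadd45a, chr6:67037358-67037657, minus strand: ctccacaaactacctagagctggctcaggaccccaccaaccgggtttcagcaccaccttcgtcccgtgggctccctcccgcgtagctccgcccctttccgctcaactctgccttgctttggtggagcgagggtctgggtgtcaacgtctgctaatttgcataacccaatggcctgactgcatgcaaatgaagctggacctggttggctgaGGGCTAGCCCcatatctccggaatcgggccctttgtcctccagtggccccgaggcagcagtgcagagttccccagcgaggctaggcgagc
Mdm2, chr10:117710709-117711008, minus strand: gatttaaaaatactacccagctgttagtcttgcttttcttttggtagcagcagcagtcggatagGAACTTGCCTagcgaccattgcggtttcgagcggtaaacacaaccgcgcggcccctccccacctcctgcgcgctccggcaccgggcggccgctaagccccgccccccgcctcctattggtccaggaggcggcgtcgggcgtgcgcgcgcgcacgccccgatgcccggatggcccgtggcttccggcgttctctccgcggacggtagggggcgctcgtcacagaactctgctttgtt
Sesn1, internal start, chr10:41887189-41887488, plus strand: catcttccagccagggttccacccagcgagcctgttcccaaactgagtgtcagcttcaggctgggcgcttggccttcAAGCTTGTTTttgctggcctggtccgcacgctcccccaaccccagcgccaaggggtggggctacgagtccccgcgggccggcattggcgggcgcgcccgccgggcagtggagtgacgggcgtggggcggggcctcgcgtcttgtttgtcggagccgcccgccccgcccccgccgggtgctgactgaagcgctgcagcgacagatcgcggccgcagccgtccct
Bbc3, chr7:16309333-16309632, plus strand: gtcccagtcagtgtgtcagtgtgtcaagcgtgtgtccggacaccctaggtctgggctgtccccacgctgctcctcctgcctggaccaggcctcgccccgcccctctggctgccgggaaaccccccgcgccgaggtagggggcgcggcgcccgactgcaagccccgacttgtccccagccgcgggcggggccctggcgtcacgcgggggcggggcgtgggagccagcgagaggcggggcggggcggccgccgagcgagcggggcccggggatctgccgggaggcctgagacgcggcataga
Trp53inp1 and Pmaip1 were not searched. Of the 6 genes Cdkn1a alone held a close pair of exact matches in its upstream window, and its other window held no decamer. In the upstream window the stretch tgacatgttc directly follows the second marked decamer. It misses the searched pattern at its first base only and is left unmarked. The other 4 genes with a match held 1 decamer each. A match is only a match of letters, and a window without one says nothing about binding elsewhere in the gene.

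Calls among the p53 targets went in both directions, mostly at different probe sets of the same genes. Over all UV weeks against both controls, 6 of the 17 probe sets passed the test, 3 higher and 3 lower, beside 6.3% of all tested probe sets called higher and 8.57% lower. Ccng1 and Sesn1 each held 1 of the higher and 1 of the lower probe sets. The 8 readings gave 1 higher gene, Bbc3, and 1 lower gene, Gadd45a. Their median difference was 0.08 on the log2 scale, against 0.07 over all probe sets tested. Here and below a call means an adjusted p of 0.05 or less from limma, by the Benjamini-Hochberg method over the 40540 probe sets tested.

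**Figure D1:**
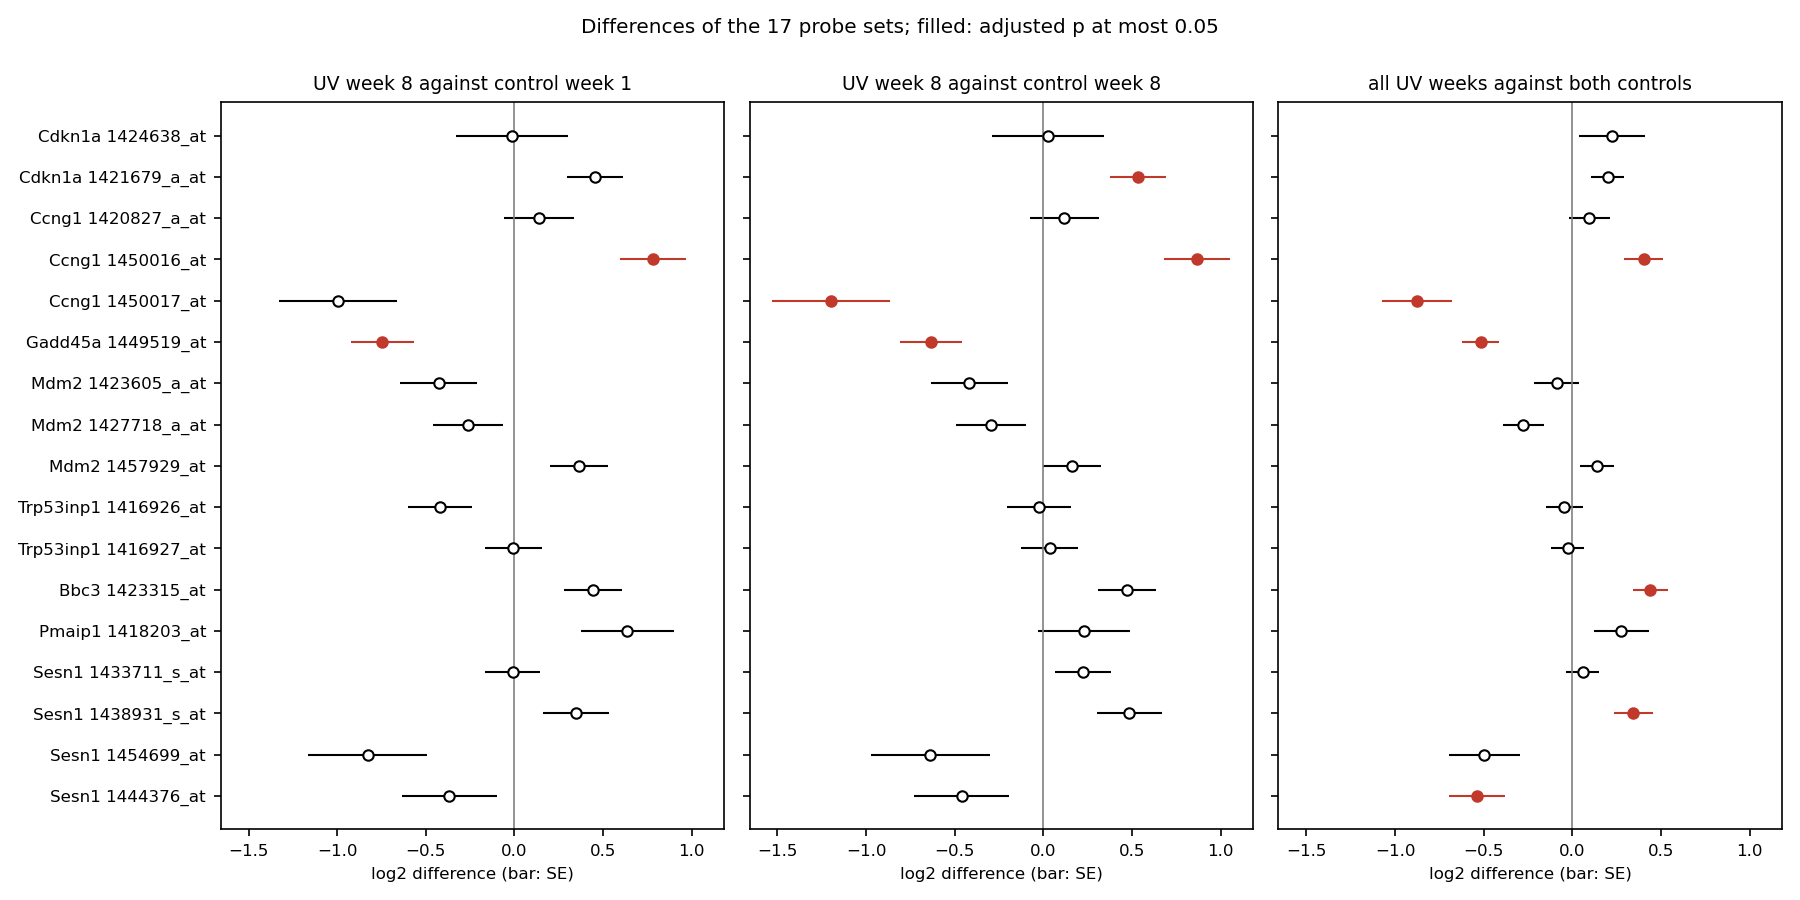
Log2 differences (points) with their standard errors (bars) of the 17 probe sets of the 8 measured p53 targets in 3 comparisons, with filled points for an adjusted p of at most 0.05. Over all UV weeks Bbc3, Ccng1 1450016_at and Sesn1 1438931_s_at lie to the right and Gadd45a, Ccng1 1450017_at and Sesn1 1444376_at to the left.

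Against control week 1, calls came late, but not every difference did. At UV weeks 1 and 6 Gadd45a differed by -0.54 and -0.47 and Bbc3 by 0.55 and 0.57, while Ccng1 1450016_at differed by -0.09 and 0.75. At UV week 1 none of the 17 probe sets was called, where 0.0123% of all were, although 3 were higher and 3 lower at an unadjusted p under 0.05. At UV week 2 none was called against a background of 0.0617%, and none passed an unadjusted 0.05 either. At UV week 4 only Gadd45a was called, lower, with 0.36% of all probe sets higher and 0.772% lower. At UV week 6, 2 were higher and 1 lower, where 5.43% and 6.3% of all were. At UV week 8, 1 was higher and 1 lower, where the shares were 5.39% and 6.73%. UV week 8 against control week 8, the comparison with mice of the same week, gave 2 higher and 2 lower against shares of 2.56% and 4.3%. The comparisons with control week 1 share its 3 arrays. UV weeks 2, 4 and 6 have no control of the same week, so time under UV, dose and age of the mice cannot be told apart there. With 17 probe sets, counts of 1 to 3 stand on single genes, which are given next.

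Gadd45a, a small protein that binds PCNA and slows the cell cycle during repair, was called lower in 4 of the comparisons. Its reading was 8.97, 8.66 and 8.48 in control week 1 and 8.47, 8.56 and 8.76 in control week 8. At UV week 4 it was 7.66, 8.17 and 8.06, and at UV week 8 it was 8.00, 8.01 and 7.87. All arrays of UV weeks 4 and 8 lay below all 6 control arrays. The other UV arrays ran from 8.03 to 8.57, and of the 15 UV arrays 12 were below the lowest control array. The exceptions were 2 at UV week 2 that lay at or just above it and 1 at UV week 6, at 8.57, inside the control range.

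The difference in Gadd45a was -0.75 (SE 0.18, adjusted p = 0.0134, limma) at UV week 8 against control week 1, that is 0.596 times the control intensity. Against control week 8 it was -0.63 (SE 0.18, adjusted p = 0.0402, limma), and over all UV weeks -0.52 (SE 0.10, adjusted p = 0.00442, limma). The call over all UV weeks held in each of the 21 fits that left out 1 array, with values from -0.57 to -0.45. The call at UV week 4 (-0.74, adjusted p = 0.0479, limma) did not, as it was lost in 16 of these fits, and those at UV week 8 were lost in 2 and in 5. At UV week 8 against control week 1 the adjusted p was 0.053 without array 13 and 0.0683 without array 555. The hair follicle markers fell in the same weeks, as given above, and their part in this fall was not tested.

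Cdkn1a, which encodes the cyclin-dependent kinase inhibitor p21 and is the best known of the p53 targets, was highest at UV weeks 2 and 4 in the group means of its reading, 1424638_at, which was called in no comparison. This reading was 10.14, 10.44 and 10.17 in control week 1 and 10.18, 10.38 and 10.06 in control week 8. It was 10.47, 11.25 and 10.82 at UV week 2 and 10.69, 10.86 and 11.07 at UV week 4. All 6 arrays of these weeks lay above all 6 control arrays. At UV week 1 it was 9.75, 9.75 and 10.79, and at UV week 8 it was 11.12, 9.62 and 9.97, so that in these weeks single irradiated mice lay far above the controls and the other mice below them.

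The difference in Cdkn1a was 0.59 at UV week 2 (SE 0.32, adjusted p = 0.86, limma) and 0.62 at UV week 4 (adjusted p = 0.454, limma), and -0.02 at UV week 8 against control week 1 (adjusted p = 0.977, limma). The spread within groups, a pooled SD of 0.43, was one of the 3 widest among the 17 probe sets. The other probe set of the gene, 1421679_a_at, was 5.92, 5.79 and 5.74 at UV week 8 and 5.32, 5.43 and 5.11 in control week 8, with no overlap. It was 0.53 higher there (SE 0.16, adjusted p = 0.0474, limma), a call lost in 14 of the 21 fits without 1 array. The readings of both probe sets correlated with r = 0.41 over the 21 arrays.

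Ccng1, cyclin G1, a target that recruits a phosphatase to Mdm2, gave opposite answers at its 3 probe sets. The reading 1420827_a_at ran from 11.46 to 12.45 over all arrays, with every pair of neighbouring groups overlapping, and was called in no comparison (0.10 over all UV weeks, SE 0.12, adjusted p = 0.563, limma). Probe set 1450016_at was 8.18, 7.89 and 7.95 in control week 1 and 7.99, 7.75 and 8.01 in control week 8. It was 8.93, 8.61 and 8.72 at UV week 6 and 8.25, 8.92 and 9.18 at UV week 8. All 6 arrays of these weeks lay above all 6 control arrays, while at UV week 1 the range, 7.82 to 7.97, lay within that of the controls.

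Ccng1 1450016_at was higher by 0.75 at UV week 6 (SE 0.19, adjusted p = 0.0191, limma), by 0.78 at UV week 8 against control week 1 (adjusted p = 0.0145, limma) and by 0.87 against control week 8 (adjusted p = 0.0148, limma). Each of these calls was lost in 3 or 4 of the 21 fits without 1 array, among them those without arrays 552 and 555 at UV week 8. Over all UV weeks it was higher by 0.40 (SE 0.11, adjusted p = 0.0223, limma), a call lost in 3 of the 21 fits. Arrays 441 and 445 of UV week 6 and 552 and 555 of UV week 8 have a beta-actin ratio above 4. In 4 of the 5 groups with arrays above and below that ratio, 1450016_at was higher in those above. Among arrays with a ratio up to 4, 6 of 8 UV arrays lay above all 5 control arrays.

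Probe set 1450017_at of Ccng1 moved the other way. It was 8.82, 8.34 and 8.91 in control week 8 and 7.92, 7.27 and 7.29 at UV week 8, where it was lower by 1.20 (SE 0.33, adjusted p = 0.0396, limma), a call lost in 9 of the 21 fits without 1 array. In control week 1 it was 9.16 and 8.98 in arrays 13 and 16 but 7.33 in array 12, which has a beta-actin ratio above 4. All 15 UV arrays, 7.03 to 8.25, lay below the other 5 control arrays. Within groups 1450017_at was lower in the arrays above a ratio of 4 in 4 of 5 groups. Among arrays with a ratio up to 4, all 8 UV arrays lay below all 5 control arrays. Over all UV weeks the difference was -0.88 (SE 0.20, adjusted p = 0.00779, limma). The correlation between 1450016_at and 1450017_at was -0.55 over the 21 arrays, and that between the reading and 1450017_at was -0.57, so no direction is given for the gene as a whole.

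Mdm2, the ligase of the feedback loop, was called in no comparison at any of its 3 probe sets. Its reading was 9.01 and 9.05 in arrays 13 and 16 of control week 1, 8.68 in array 12, and 8.95, 8.78 and 8.98 in control week 8. It was highest at UV week 2, with 9.20, 9.25 and 9.46, all above every control array. At UV week 8 it was 9.17 in array 551 but 8.15 and 8.13 in arrays 552 and 555, a gap of about 1 within a group. The difference was 0.39 at UV week 2 (SE 0.22, adjusted p = 0.89, limma) and -0.43 at UV week 8 against control week 1 (adjusted p = 0.185, limma). Without array 551 the latter became -0.77 (adjusted p = 0.00228, limma) and that against control week 8 -0.76 (adjusted p = 0.00303, limma), so 1 array decided these results. The arrays then left at UV week 8, 552 and 555, both have a beta-actin ratio above 4, and Mdm2 was lower in such arrays within groups, as given below. Probe set 1427718_a_at was 0.28 lower over all UV weeks (adjusted p = 0.11, limma), and 1457929_at, mostly under the floor, 0.14 higher (adjusted p = 0.316, limma).

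Trp53inp1, a stress-induced protein that promotes the phosphorylation of p53 and autophagy, did not pass any test. Its reading was 10.77, 11.61 and 11.16 in control week 1, 10.55, 10.85 and 10.95 in control week 8 and 10.54, 10.90 and 10.84 at UV week 8. The arrays of UV week 8 overlapped both control groups, and all of them lay below the 6 arrays of UV weeks 2 and 4 (10.94 to 11.07). At UV week 8 the difference was -0.42 from control week 1 (SE 0.18, adjusted p = 0.12, limma) and -0.03 from control week 8, and the control groups themselves differed by -0.39 from week 1 to week 8 (adjusted p = 0.949, limma). Without array 12 the difference from control week 1 passed the test (adjusted p = 0.0247, limma).

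Bbc3, which encodes the BH3-only protein PUMA that frees Bax and Bak to open mitochondria, was the only target higher over all UV weeks at its reading. It was 6.41, 6.31 and 6.38 in control week 1 and 6.47, 6.10 and 6.44 in control week 8. It was 6.95, 7.15 and 6.66 at UV week 1. The arrays of UV week 6 gave 6.97, 6.81 and 7.04 and those of UV week 8 gave 6.44, 7.07 and 6.90. Of the 15 UV arrays 12 lay above all 6 control arrays, and the other 3, arrays 222 and 225 of UV week 2 and array 551 of UV week 8, lay in the upper part of the control range. All 5 UV groups had a higher mean than both controls, and UV week 2 had the lowest of them.

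The difference in Bbc3 was 0.44 over all UV weeks (SE 0.096, adjusted p = 0.00649, limma), that is 1.36 times the control intensity, and it was called in each of the 21 fits without 1 array (0.38 to 0.48). At UV week 6 it was 0.57 (SE 0.16, adjusted p = 0.0309, limma), a call lost without array 13, 16, 441 or 445 (adjusted p of 0.0712 to 0.122). At UV week 1 the difference was of like size, 0.55, but did not pass (adjusted p = 0.149, limma). At UV week 8 it was 0.44 against control week 1 (adjusted p = 0.0778, limma) and 0.62 without array 551 (adjusted p = 0.00556, limma), when only arrays of high beta-actin ratio are left in that week.

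Pmaip1, which encodes NOXA, the other BH3-only protein of the group, was not called. Its reading was 6.32, 6.23 and 6.84 in control week 1, 6.80, 6.90 and 6.91 in control week 8, 7.03, 7.03 and 7.31 at UV week 4 and 7.28, 6.69 and 7.33 at UV week 8. The arrays of UV week 4 lay above all 6 control arrays. At UV week 6 the mice ranged from 6.21 to 7.67, the widest range of any group for this gene. The difference from control week 1 was 0.66 at UV week 4 (SE 0.26, adjusted p = 0.301, limma) and 0.64 at UV week 8 (adjusted p = 0.108, limma), and against control week 8 it was 0.23 at UV week 8 (adjusted p = 0.573, limma). Control week 8 was itself 0.41 above control week 1.

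Sesn1, sestrin 1, which restrains TOR signalling and takes part in antioxidant defence, gave mixed readings at 4 probe sets. The reading 1433711_s_at was 11.17, 11.55 and 10.99 in control week 1 and 10.88, 11.45 and 11.35 at UV week 8, and it was called nowhere (0.06 over all UV weeks, adjusted p = 0.665, limma). Probe set 1438931_s_at lay between 11.21 and 11.23 in the 3 arrays of UV week 1, above all 6 control arrays (10.25 to 10.86), and was higher by 0.34 over all UV weeks (SE 0.11, adjusted p = 0.0421, limma), a call lost in 15 of the 21 fits without 1 array. Probe set 1454699_at was lower by 1.05 at UV week 6 (SE 0.34, adjusted p = 0.049, limma), a call lost in 16 of these fits. Arrays 441 and 445 of that week have a beta-actin ratio above 4. In 5 of the 5 groups with arrays above and below that ratio, 1454699_at was lower in those above. Probe set 1444376_at, which is close to the floor, was lower by 0.54 over all UV weeks (adjusted p = 0.0303, limma), a call lost in 3 of the 21 fits. The correlation between 1433711_s_at and 1438931_s_at was 0.60, and that between 1438931_s_at and 1444376_at was -0.41.

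Some of the spread within groups went with the beta-actin ratio. In 5 groups arrays above and below a ratio of 4 were both present. Cdkn1a was lower in the arrays of high ratio in 5 of the 5 groups, by 1.04 and 1.33 at UV weeks 1 and 8, by 0.02 and 0.32 at UV weeks 4 and 6, and by 0.16 in control week 1. Mdm2 was lower in 5 of 5 as well, by 0.13 to 1.03. The readings of Bbc3 and of Ccng1 were higher in the arrays of high ratio in 4 of 5 groups, and Gadd45a in 3 of 5. The comparison within groups rests on 1 array on one side in every group.

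Among the 13 arrays with a ratio up to 4, the values of Cdkn1a were 10.06 to 10.44 in 5 control arrays and 10.43 to 11.25 in 8 UV arrays, 7 of which lay above all the controls. In the fit without the 8 arrays of high ratio Cdkn1a was 0.56 higher over all UV weeks, against 0.22 (adjusted p = 0.399, limma) with all arrays. That fit leaves 1 array in each of UV weeks 1, 6 and 8, so only its effect sizes are given. With the beta-actin ratio as a covariate Cdkn1a was 0.35 higher (adjusted p = 0.0795, limma), and with the Gapdh ratio 0.13 (adjusted p = 0.478, limma). For Gadd45a the 3 fits gave -0.46, -0.53 and -0.49, the last 2 called. For Bbc3 they gave 0.31, 0.40 and 0.48, the last 2 called. Arrays of high ratio were 7 of 15 among the UV arrays and 1 of 6 among the controls.

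**Figure D2:**
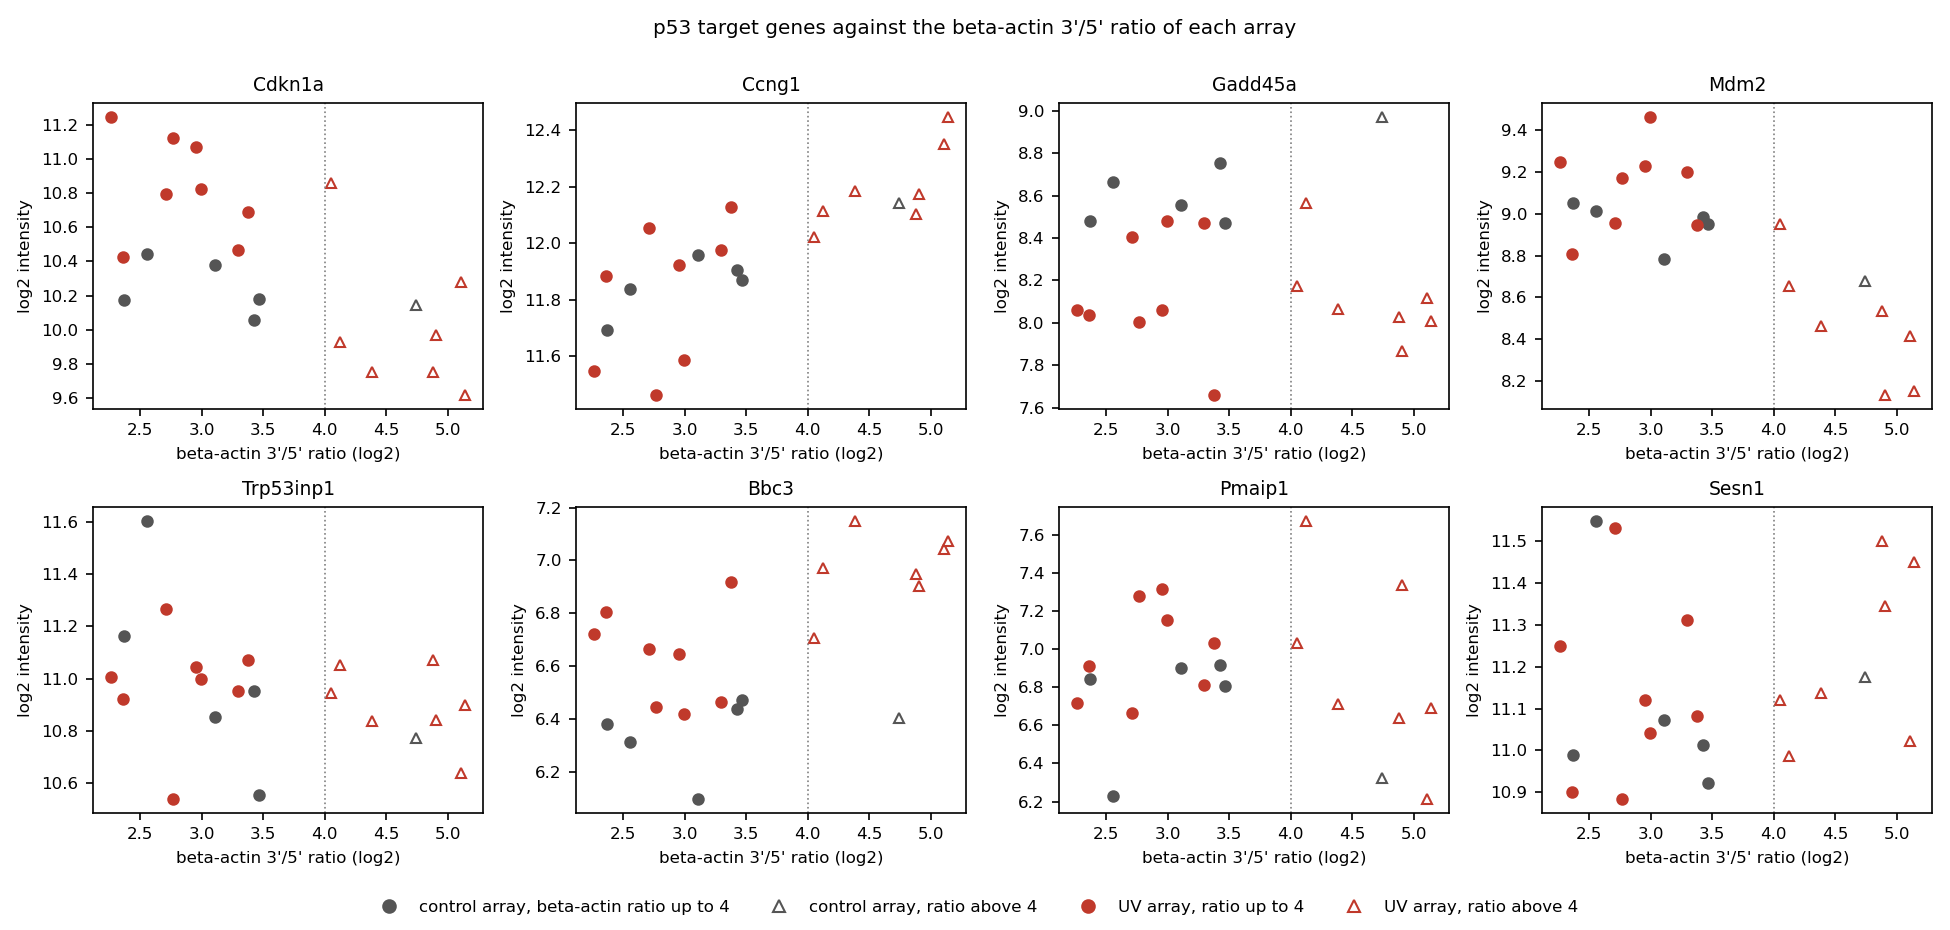
Log2 intensity of the 8 measured p53 targets against the log2 3'/5' ratio of beta-actin of the same array, for control arrays (grey) and UV arrays (red), with a dotted line at the ratio of 4 and triangles above it. Up to a ratio of 4, 7 of 8 UV arrays of Cdkn1a lie above the controls, and above it 5 of 7 lie below them, while Gadd45a of the UV arrays lies low on both sides.

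The weeks themselves were hard to tell apart. Without UV, control week 8 against control week 1 gave 0 calls among the 17 probe sets, with 1 lower at an unadjusted p under 0.05, and 0.0592% of all probe sets were called. The UV effect at week 8 minus that at week 1, each against its own control, gave 0 calls where 0.00247% of all probe sets were called. The largest differences of this kind were 0.95 for Ccng1 1450016_at (adjusted p = 0.86, limma) and 0.75 for Cdkn1a 1421679_a_at (adjusted p = 0.921, limma). Among the 5 UV weeks, Ccng1 1450016_at alone differed by limma's F test (adjusted p = 0.0398), with a range of group means of 0.87, where 1.58% of all probe sets did. Mdm2 and Cdkn1a had ranges of 0.82 and 0.78 among the UV weeks and were not called (adjusted p of 0.124 and 0.227, limma).

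The wider pathway was read from 5 lists of genes, which were chosen with earlier results of these data known. Among 15 regulators and relatives of p53, 1 was higher and 6 lower at UV week 8 against control week 1, and 4 were higher and 5 lower over all UV weeks. Among all probe sets tested, 5.39% were higher and 6.73% lower in the first of these comparisons, and 6.3% and 8.57% in the second. Mdm4, an Mdm2-like inhibitor of p53, was 7.60, 8.05 and 7.96 in control week 1, 7.71, 7.89 and 7.80 in control week 8 and 7.63, 6.65 and 6.39 at UV week 8. It was lower by 0.99 against control week 1 (SE 0.23, adjusted p = 0.0117, limma) and by 0.91 against control week 8 (adjusted p = 0.0267, limma). Array 551 lay inside the range of the controls. Arrays 552 and 555 have a beta-actin ratio above 4, and the part of RNA integrity in this fall was not tested. Atm, the kinase that answers double-strand breaks, fell by 0.63 against control week 1 (adjusted p = 0.00595, limma) and differed by -0.38 from control week 8 (adjusted p = 0.0774, limma). At UV week 8 it was 7.10 in array 551, at the lower end of control week 8 (7.10 to 7.32). In arrays 552 and 555 Atm was 6.66 and 6.77, and the part of RNA integrity was not tested here either. Ppm1d, the phosphatase that ends the p53 response, fell by 0.47 (adjusted p = 0.00745, limma) and differed by -0.26 from control week 8 (adjusted p = 0.103, limma). Chek1 and Trp63 were singled out after their values were seen. Chek1, a checkpoint kinase, was 0.68 higher over all UV weeks (adjusted p = 0.0104, limma), and Trp63, the p53 relative that maintains basal keratinocytes, was 0.74 lower (adjusted p = 0.00189, limma).

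Of 7 other targets in growth arrest, 1 was lower at UV week 8 against control week 1 and none higher, beside 6.73% and 5.39% of all probe sets, so the call stands on a single gene. This was Btg2, an antiproliferative target, at 8.84, 9.10 and 8.93 in control week 1 and 8.31, 8.11 and 7.87 at UV week 8, a difference of -0.86 (SE 0.13, adjusted p = 0.000877, limma). Its control week 8 arrays lay between, at 8.53, 8.58 and 8.48, and against them the difference was -0.43 (adjusted p = 0.0524, limma). At UV week 4 it was 9.50, 9.01 and 9.20, a range that overlapped that of control week 1. Plk2, a polo-like kinase, differed by -0.71 at UV week 8 (adjusted p = 0.0552, limma). Gtse1, a protein that keeps p53 out of the nucleus, was the 1 called over all UV weeks, higher by 0.23 (adjusted p = 0.0379, limma).

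None of 10 other targets in cell death and none of 8 in repair and metabolism was called at UV week 8 against control week 1. Of all probe sets 5.39% were higher and 6.73% lower there. Over all UV weeks, where these shares were 6.3% and 8.57%, 1 of the cell death targets was called. This was Bid, which is lower (-0.32, adjusted p = 0.0298, limma) and was named after its value was seen. At UV week 6 against control week 1 each list held 1 call, where 5.43% of all probe sets were higher and 6.3% lower. Such counts stand on single genes. Eda2r, a receptor of the TNF receptor family and also named after its value was seen, was higher by 0.72 (adjusted p = 0.0461, limma), and the damage sensor Xpc was lower by 0.54 (adjusted p = 0.0149, limma). The nearest at UV week 8 were the death receptor Fas (-0.59, adjusted p = 0.0506, limma), the receptor Tnfrsf10b (0.36, adjusted p = 0.114, limma) and the apoptosome scaffold Apaf1 (-0.32, adjusted p = 0.099, limma). In repair they were the bypass polymerase Polk (-0.75, adjusted p = 0.0918, limma), Xpc (-0.35, adjusted p = 0.0736, limma) and the autophagy gene Dram1 (-0.27, adjusted p = 0.283, limma). List medians at UV week 8 were -0.04 for regulators, -0.17 for growth arrest, -0.06 for cell death and 0.00093 for repair and metabolism, with 0.09 over all probe sets tested.

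Of 11 relatives of the members that are not classical p53 targets, 2 were lower and none higher at UV week 8 against control week 1, where 6.73% of all probe sets were lower and 5.39% higher. They were Cdkn1b, which encodes the kinase inhibitor p27 (-0.47, adjusted p = 0.039, limma), and the sestrin Sesn3 (-0.43, adjusted p = 0.0269, limma). Neither was called against control week 8, from which Cdkn1b differed by -0.33 (adjusted p = 0.146, limma) and Sesn3 by -0.09 (adjusted p = 0.632, limma). Cdkn1c, which encodes p57, was 6.42, 5.78 and 6.79 in control week 8 and 5.80, 4.83 and 4.58 at UV week 8, where it was lower by 1.26 (SE 0.30, adjusted p = 0.021, limma). It was also lower over all UV weeks (-0.76, adjusted p = 0.0091, limma). At UV week 8 the value of 5.80 was that of array 551. The lower values were those of arrays 552 and 555, which have a beta-actin ratio above 4, and the part of RNA integrity was not tested.

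**Figure D3:**
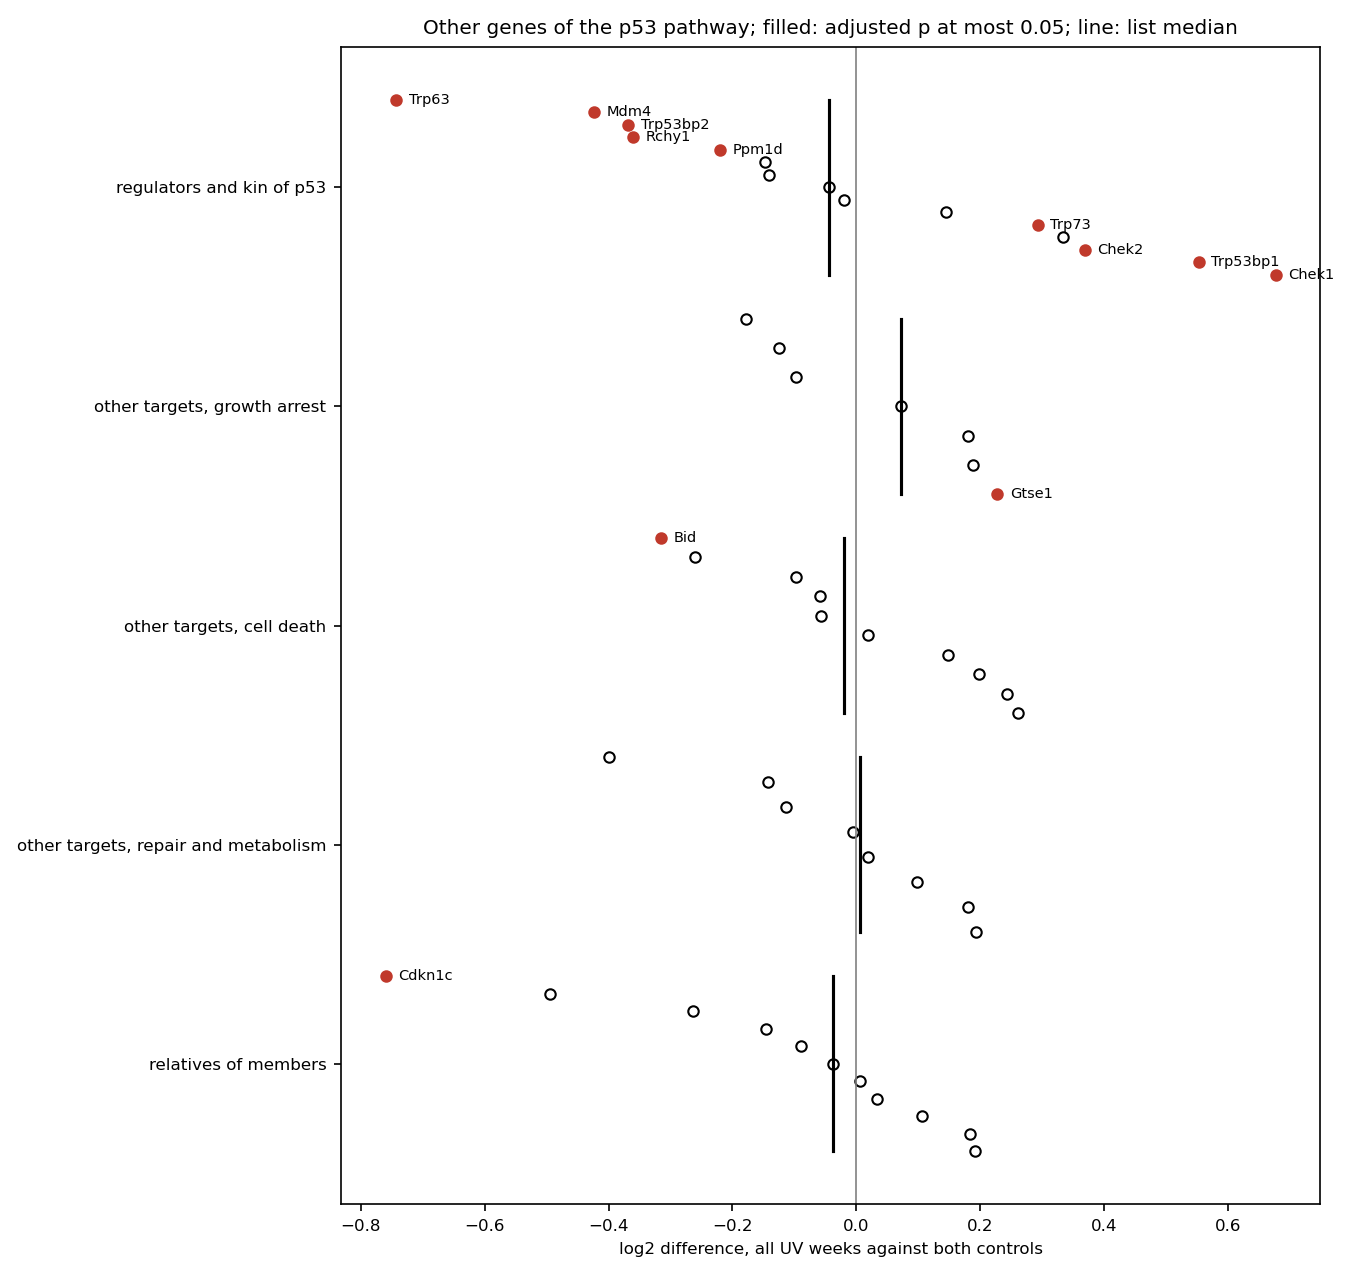
Log2 difference over all UV weeks against both controls of the genes in 5 lists around p53, each gene a point, filled and named where the adjusted p is at most 0.05, with a line at each list's median. Among regulators 4 genes lie to the right and 5 to the left, and the lists of other targets hold 1 called gene each in growth arrest and cell death and none in repair and metabolism.

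The targets did not follow one another closely. Over the 21 arrays the readings of Cdkn1a and Mdm2 had r = 0.78, Mdm2 and Ccng1 r = -0.82, Cdkn1a and Ccng1 r = -0.66, and Gadd45a and Bbc3 r = -0.66. Trp53inp1 and Pmaip1 had r = -0.14. The genes most like Cdkn1a were Wbp2, Rab3d and Acadvl (r = 0.94, 0.93 and 0.93), and those most like Mdm2 were Cox4i1, Banf1 and Timm10b (r = 0.96 each). For Bbc3 they were 1700036A12Rik, Kcnj11 and Myo7b (r = 0.94, 0.93 and 0.92), and for Gadd45a Slf1, Pnn and Pcnp (r = 0.87, 0.86 and 0.86). For Ccng1 Slc25a4 led with r = 0.93, for Pmaip1 Galnt7 with 0.87, for Trp53inp1 Trim2 with 0.82 and for Sesn1 Tns1 with 0.78. No other member was among the 3 closest genes of any of the 8. These are descriptions over arrays that also share RNA integrity and tissue composition.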

How the data were processed

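RNA of dorsal skin was measured on 21 Affymetrix Mouse Genome arrays, 3 mice in each of 7 groups, and the groups were taken from the sample labels. The deposited values are probe set intensity on a linear scale, which the authors summarized and normalized across arrays. For this step the Methods give the Microarray Suite preprocessor of Expression Console, and RMA stands in the submitters' processing notes. The lowest value is 4.35 and array medians lie between 30.1 and 33.3, and the values were used as deposited. Probe-level signals and detection calls were not used here.

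After a floor of 1 the log2 was taken. Probe sets that reached the 20th percentile of their array in at least 1 array were kept, and 64 control probe sets were left out. The model held 1 mean for each group and took in the 21 arrays together (lmFit and eBayes of limma 3.58.1, R 4.3.3, with 14 residual degrees of freedom). Within a comparison, the Benjamini-Hochberg adjustment ran over the probe sets tested. The Methods' 2-fold rule was an alternative. Groups of 3 allow no small exact permutation p, and the number of arrays limits the precision. The fit was tested on simulated data. The members, the gene lists and the beta-actin limit of 4 were chosen with earlier results of these data known. For each member all probe sets annotated to it alone were used, and in each other list up to 3 genes were named, those of smallest adjusted p at UV week 8 against control week 1, except where the text says otherwise. Array numbers are not shared between groups. Alternatives were no filter, quantile normalization on top, a fit to the compared groups alone, the 3'/5' ratio of beta-actin or Gapdh as a covariate, leaving out the 8 arrays of high beta-actin ratio, the mean of both controls as baseline, and leaving out each array in turn. Promoter sequences are from RefSeq (GRCm38.p6). The plots come from matplotlib 3.10.9 under Python 3.11.15.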

Additional observations from a re-analysis of the deposited data

Results flagged for a closer look

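Ccng1 1450016_at differed among the 5 UV weeks by limma's F test (adjusted p = 0.0398). Its mean was 7.92 in the first UV week. In UV weeks 2 and 4 it was 8.18 and 8.19, and in the last groups, UV weeks 6 and 8, it was 8.75 and 8.78. The call was lost in 18 of the 21 fits without 1 array. The other probe sets of the gene did not show this order. Within groups 1450016_at was higher in the arrays of high beta-actin ratio in 4 of 5 groups.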

How the results depend on the processing

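The counts below are of the 17 probe sets called, which were 0, 0, 1, 3 and 2 at UV weeks 1, 2, 4, 6 and 8 against control week 1, 4 at UV week 8 against control week 8, 6 over all UV weeks and 1 among the UV weeks. Quantile normalization gave 0 at UV week 4, 1 at UV week 8 against control week 8 and 0 among the UV weeks. A fit to the compared groups alone gave 0 at UV week 4 and 1 in the week 6 comparison, and 0 for week 8 against either control, having fewer arrays to estimate the spread. The Gapdh covariate gave 5 at UV week 6, 6 at UV week 8 against control week 1 and 7 against control week 8. The fit without the 8 arrays of high beta-actin ratio leaves 1 array in each of UV weeks 1, 6 and 8, so its counts are not given. The 2-fold rule gave 0 and 1 for UV weeks 4 and 6, 0 and 1 for UV week 8 against control weeks 1 and 8, and 0 over all UV weeks. With the mean of both controls as baseline there were 5 for UV week 6 and also 5 for UV week 8. No called value changed sign under any of these settings. Apart from the settings named, the cause was not tested.

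Leaving out 1 array at a time gave 0 to 1 at UV week 1, 0 at UV week 2, 0 to 1 at UV week 4, 0 to 5 at UV week 6, 0 to 9 at UV week 8 against control week 1, 0 to 7 against control week 8, 3 to 7 over all UV weeks, 0 between the controls, 0 to 1 for the UV effect at week 8 minus that at week 1, and 0 to 4 among the UV weeks. The highest counts at UV weeks 6 and 8 came without array 551 (5, 9 and 7). Without array 12 there were 5 at UV week 8 against control week 1. Without array 13 there were 0 at UV weeks 4, 6 and 8 against control week 1 and 3 over all UV weeks. Without array 16 there were 0 at UV week 6, and without 441 or 445 there was 1. At UV week 8 against control week 8 there were 0 without array 53, 55, 552 or 555. The calls of Gadd45a, Bbc3 and Ccng1 1450017_at over all UV weeks held in all 21 such fits. No paired analysis was possible because the groups share no replicate numbers.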
